A study of Mus musculus with 2 samples.

Results

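C1q-high macrophages were taken from single-cell RNA profiles of immune cells out of B16-OVA tumors, a mouse melanoma line that carries ovalbumin, grown in C57BL/6J mice. Cells were chosen by their own UMIs, the counted RNA molecules. A C1q-high macrophage held at least 10 UMIs of C1qa, C1qb and C1qc together, at least 1 UMI of Csf1r and no more than 25% mitochondrial UMIs. It also held at most 1 UMI of the T cell receptor chains Cd3d, Cd3e and Cd3g, fewer than 3 UMIs of Ace, Adgre4 and Treml4, and none of Xcr1 and Clec9a. In all, 1107 of 13470 cells under the mitochondrial limit met the rule. Every value of the C1q genes and of the other genes in the rule is therefore a description of how the cells were chosen.

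There were 2 libraries. The control library came from mice labelled as receiving PBS, and the creatine library from mice given 10.5 mg of creatine a day by intraperitoneal injection. In both groups tumors were taken on day 14, the cells of 4 tumors were combined, live CD45.2+ cells were sorted, and 10000 cells were loaded. These are the values of the labels: other passages of the sources give another day of harvest and another number of animals, and a treatment field that both samples share names the creatine injection, so the control rests on its PBS label and its title. The design asks how creatine supplementation changes the immune cells inside a tumor. The control library held 7649 cells with 80434564 UMIs, of which 7241 cells passed the mitochondrial limit, and the creatine library held 6503 cells with 72898494 UMIs, of which 6229 passed. The study's methods give young adult male mice unless stated otherwise, and the macrophage sums did not match male cells: Xist, the RNA of the silenced X chromosome, stood at 720.9 CPM in control and 664 CPM in creatine, with the Y-linked Ddx3y, Eif2s3y and Kdm5d at 0 UMIs in both. With 1 library per group, no test between the groups could be made: all ratios between libraries compare these 2 libraries, and every 95% interval covers counting error alone. The libraries shared 30 cell barcodes, 3 of them on control macrophages and 1 on a creatine macrophage, with no barcode on a macrophage in both.

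C1q is the recognition unit of the classical complement pathway, which tags dying cells and immune complexes for uptake, and in tumors most of it is made by macrophages. Many tumor macrophages descend from Ly6c2-positive monocytes that enter through the chemokine receptor Ccr2 and lose Ly6c2 as they mature. Interferon-gamma from T and NK cells drives macrophages, through Irf1 among others, to make guanylate-binding proteins and Cxcl9 and Cxcl10, which attract T cells that carry Cxcr3. Macrophages can also take on an alternative program, with the mannose receptor Mrc1 and scavenger receptors. Creatine enters cells through the transporter Slc6a8.

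The control library held 813 C1q-high macrophages and the creatine library 294. Their share of kept cells was 11.2% in control (95% exact binomial interval 10.5 to 11.98%) and 4.72% in creatine (4.21 to 5.28%), 2.38 times larger in the control library. The intervals did not overlap, but they do not cover the difference between tumors. The monocytes went the other way. Classical monocytes, gated on Ly6c2, Vcan and Csf1r with fewer than 10 C1q UMIs, were 143 control cells (1.97%) and 192 creatine cells (3.08%). Nonclassical monocytes, gated on Ace, Adgre4 and Treml4 with Csf1r, were 127 control cells (1.75%) and 298 creatine cells (4.78%). Of these, 33.9% in control and 49.3% in creatine also held more than 2 UMIs of Ly6c2 and Vcan. Both gates ask for a number of UMIs, which a deeper cell reaches more easily. Median UMIs were 8296 in control and 9784 in creatine classical monocytes, and 6531 and 8776.5 in nonclassical monocytes. The part of depth in the monocyte shares was not tested. Among cells of the 3 gated kinds, 75.1% were macrophages in control and 37.5% in creatine. Because the share of 1 kind depends on how many other cells were sorted, fewer macrophages and more of the other cells cannot be told apart here.

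**Figure D1:**
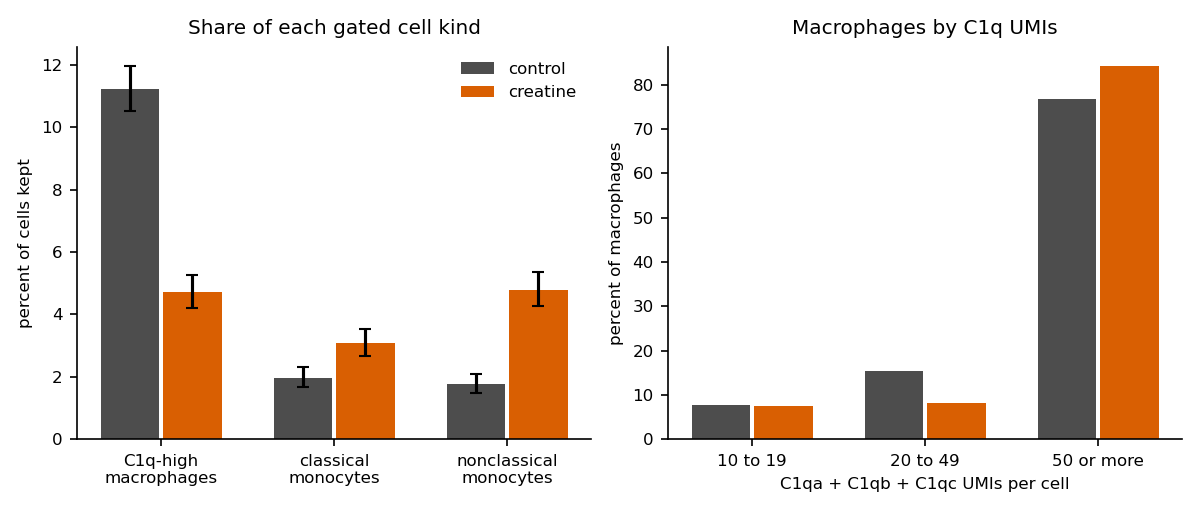
Left, percent of kept cells in each gated kind in the control and creatine libraries; right, percent of macrophages in 3 ranges of C1q UMIs (C1qa, C1qb and C1qc summed). Error bars in the left panel are 95% exact binomial intervals for counting error, with 1 library per group. The macrophage bar is 11.2% in control and 4.72% in creatine, while both monocyte bars are taller in creatine.

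The creatine macrophages were the more deeply counted. A control macrophage held a median of 15220 UMIs and 3650 genes, and a creatine macrophage 22138 UMIs and 4417.5 genes. The median mitochondrial share was 4.82% and 4.42%. The median C1q count was 125 UMIs per control cell, with a range of 10 to 1229, and 205 per creatine cell, with a range of 10 to 962. As a share of all macrophage UMIs the C1q genes were closer: C1qa stood at 3422 CPM (UMIs of a gene scaled to a total of 1e+06) in control and 3899 in creatine macrophages, and C1qb at 3986 and 4214. All CPM below are of the UMIs summed over the cells of a kind, 14105426 for control and 7160046 for creatine macrophages, 1273691 and 1936289 for classical and 845660 and 2745652 for nonclassical monocytes.

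The gate cut through a continuous range. Cells just outside it, with 5 to 9 C1q UMIs, numbered 46 in control and 13 in creatine, and held Ms4a7 at 277 and 247 CPM. Cells just inside, with 10 to 14 C1q UMIs, numbered 30 and 14 and held 113 and 286 CPM. Cells with at least 200 C1q UMIs numbered 303 and 151 and held 715 and 877 CPM. Ly6c2 ran the other way: 495 and 1719 CPM just outside, 690 and 1314 just inside, and 47.4 and 102 at 200 C1q UMIs or more. The lower end of the gate therefore held cells with many transcripts of a monocyte gene, and 229 control macrophages (28.2%) and 113 creatine macrophages (38.4%) had more than 2 UMIs of Ly6c2 and Vcan. Cells with C1q left out by the other conditions were 132 control and 35 creatine cells with 2 or more Cd3 UMIs, 76 and 63 with Xcr1 or Clec9a, 70 and 40 without Csf1r, and 6 and 14 with Ace, Adgre4 and Treml4.

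Genes that the gate did not use were then set beside the label. A gene was counted as past the fold where both sums held at least 100 UMIs together, the ratio was at least 2-fold (a log2 ratio of at least 1) and its interval did not include 0. Since the macrophage sums were the larger, a gene could reach 100 UMIs through the macrophages alone, so the counts of lists against monocytes describe the sums and carry no support of their own. Of 23 macrophage identity genes measured in all 4 comparisons with monocytes, 16 were past the fold above both kinds of monocyte in both libraries, against 6.64% of 7415 genes. They included the lysosomal scavenger receptor Cd68, the F4/80 antigen Adgre1, the lipid receptor Trem2, the efferocytosis receptor Mertk, Selenop, Siglec1 and Maf, a transcription factor of resident macrophages. Ms4a7, a membrane protein of mature macrophages, stood at 539.4 CPM in control macrophages, at 42.4 CPM in classical and 20.1 CPM in nonclassical monocytes. In the creatine library it stood at 733.1, 22.7 and 28.4 CPM. Cx3cr1, the fractalkine receptor of nonclassical monocytes, was the single identity gene that was lower than both kinds in both libraries. Fcgr1, a high-affinity Fc receptor, was not past the fold above classical monocytes.

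RNA of other cell types' markers was present in the sums at varied levels. The T cell markers added to 73.4 CPM in control and 54.7 CPM in creatine macrophages, with Trbc2 (15.4 CPM) and Trbc1 (9.50 CPM) highest, beside 4149 and 4965 CPM over all kept cells. The macrophage gate itself limited the Cd3 genes among them. NK cell markers added to 62.8 and 86.5 CPM, led by the granule protease Gzma at 33.8 and 60.3 CPM, beside 934 and 1960 CPM over all kept cells. B cell markers added to 139 and 106 CPM, mostly Ighm, beside 121 and 149 CPM over all kept cells, so that control macrophages stood above the level of all cells. Neutrophil markers added to 98.5 and 101 CPM, led by Csf3r, beside 200.2 and 167 CPM. Melanoma markers added to 89.7 and 84.8 CPM, led by the pigment enzyme Dct at 44.2 and 41.5 CPM, beside 192 and 251 CPM. Dendritic cell markers added to 14.5 and 24.6 CPM, beside 126 and 82.8 CPM, and Xcr1 and Clec9a were at 0 by the gate. What part such RNA had in the ratios below was not tested beyond the values given.

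Set against the monocytes, the macrophages held more RNA of uptake, lysosome, lipid, iron and division genes. Macrophages were past the fold above classical monocytes for 12.3% of 8695 genes in control and 14.4% of 7460 in creatine, and below them for 4.3% and 6.81%. Against nonclassical monocytes they were above for 16.6% of 8688 genes in control and 14.8% of 7729 in creatine, and below for 9.97% and 10.2%. In all 4 comparisons 492 genes were higher and 211 (2.85%) lower. The gates used C1q, Ly6c2, Vcan, Ace, Adgre4 and Treml4, so the levels of these genes between kinds are fixed by the choice of cells.

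Among scavenging and efferocytosis genes 7 of 17 were higher than both kinds in both libraries, and the complement component C3 was lower. The scavenger receptor Stab1 was higher than in classical monocytes by a log2 ratio of 2.97 in control and 5.55 in creatine, and than in nonclassical monocytes by 5.30 and 8.86. The mannose receptor Mrc1 was higher than in classical monocytes by 2.38 and 4.87, and than in nonclassical monocytes by 6.93 and 6.74. Of 23 lysosomal genes 9 were higher in all 4 comparisons. The protease Ctsd was higher by 2.35 and 3.64 than in classical and by 3.35 and 3.56 than in nonclassical monocytes. Of 19 lipid handling genes 7 were higher, among them Fabp5, a fatty acid carrier, whose log2 ratios were 1.34 and 4.45 against classical and 3.41 and 4.70 against nonclassical monocytes. Of 12 iron genes 6 were higher: the ferritin heavy chain Fth1, the transferrin receptor Tfrc, the iron carrier Slc11a2, the ferric reductase Steap3, the ferroxidase Cp and the biliverdin reductase Blvrb.

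The chemokines split. Ccl7, Ccl8, Ccl12, Cxcl16 and Pf4 were higher in macrophages in all 4 comparisons, 5 of the 14 measured. Ccl8, a ligand that attracts monocytes and T cells, stood at 2090 CPM in control macrophages, 19.6 CPM in classical and 24.8 CPM in nonclassical monocytes. In the creatine library it stood at 3887, 12.4 and 21.9 CPM, so its log2 ratio was 6.73 and 8.29 against classical and 6.40 and 7.47 against nonclassical monocytes. Cxcl10 was not a macrophage gene in this sense: its log2 ratio against classical monocytes was -1.81 in control and -1.06 in creatine. Of 30 interferon-gamma response genes 4 were higher than both kinds in both libraries, the nitric oxide synthase Nos2, the GTPases Iigp1 and Gm4951, and the Fc receptor Fcgr4. The receptor chain Ifngr1 was lower than both kinds in both libraries.

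Cell cycle genes were summed over the list of 20. They added to 1359 CPM in control and 1293 CPM in creatine macrophages, 146 and 113 CPM in classical monocytes and 228 and 137 CPM in nonclassical monocytes, beside 2422 and 2256 CPM over all kept cells. The monocyte sums rest on 186 to 375 UMIs for the whole list, so the genes reached the minimum mostly through the macrophages. All but Mcm4 were past the fold higher in all 4 comparisons, and the median log2 ratio was 3.70 in control and 4.18 in creatine against classical monocytes and 2.70 and 3.82 against nonclassical monocytes. The median over all genes in these comparisons was 0.13, 0.10, 0.08 and 0.04. The proliferation antigen Mki67 was higher by 4.46 and 4.02 than in classical monocytes and by 4.04 and 4.80 than in nonclassical monocytes. Genes outside the lists were ranked only if they had a UMI in the sums of both kinds of cell in both libraries. A gene without a UMI in the monocytes has no ratio and is left out. Of the 8 such genes with the largest ratios over classical monocytes in both libraries, 3 are mitotic genes. They are Hmmr (5.19), Plk1 (4.79) and Cdc20 (4.75), where the smaller of both libraries' log2 ratios is given. The others were the synaptic vesicle gene Syngr1 (6.33), the adhesion molecule Vcam1 (6.29), the signalling adaptor Blnk (5.24), Fblim1 (4.62) and Tns1 (4.58), both of cell-matrix contacts. Lowest were Cd177 (-5.17), Mcemp1 (-3.96), the integrin Itga1 (-3.35), the sorting receptor Sorl1 (-3.16) and the prostaglandin dehydrogenase Hpgd (-3.15).

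Against nonclassical monocytes, too, only genes with a UMI in every sum were ranked. The largest ratios outside the lists were then those of Vcam1 (6.21), the proton pump subunit Atp6v0d2 (6.08), Tns1 (5.99) and Syngr1 (5.74). The carbonyl reductase Cbr2 (5.66), Blnk (5.65), Pmp22 (5.63) and the aminopeptidase Anpep (5.55) followed. The lowest were the Notch target Hes1 (-6.00), Ccdc88c (-5.63), Hpgd (-5.63), the adhesion molecule Ceacam1 (-5.61) and the ion cotransporter Slc12a2 (-5.36). Vcam1, Tns1, Syngr1 and Blnk were thus among the named genes against both kinds. Leaving out Ly6c2 and Vcan, which the gate used, 11 of 14 classical monocyte genes were lower in macrophages in all 4 comparisons. Among 31 transcription factors Maf, the sterol sensor Nr1h3, Mitf and Bhlhe41 were higher in all 4 comparisons and Klf2, Nr4a1 and Egr1 lower. Nr4a1 and Egr1 are also on the list of immediate early and dissociation genes. Of its 16 genes 7 were lower in all 4 comparisons (Fos, Junb, Egr1, Ier2, Btg2, Zfp36 and Nr4a1) and none higher, beside 2.85% lower over all genes. None of 7 MHC class II genes, 14 MHC class I genes, 75 respiratory chain and ATP synthase genes or 13 hypoxia genes was past the fold above both kinds in both libraries. That rule asks for all 4 comparisons, and class II differed in some of them. The class II list added to 16629 CPM in control macrophages, 15346 in classical and 3623 in nonclassical monocytes. In the creatine library it added to 14557, 5158 and 6231 CPM.

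**Figure D2:**
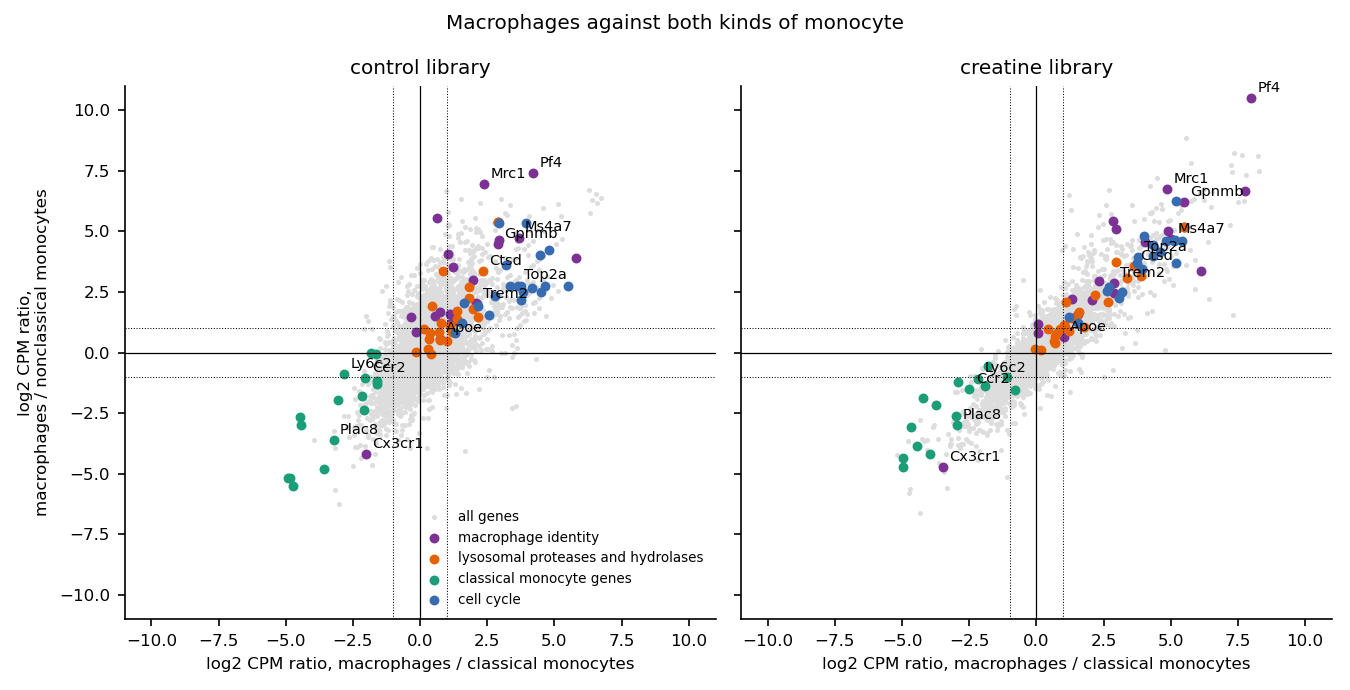
Each point is a gene; the x axis is its log2 CPM ratio of macrophages to classical monocytes and the y axis that of macrophages to nonclassical monocytes, 1 panel per library, with dotted lines at a log2 ratio of 1 and -1. Genes at 0 UMIs in a sum are not drawn. Colors mark 4 gene lists. Ms4a7, Mrc1 and Pf4 lie to the upper right in both panels, and classical monocyte genes to the lower left.

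Some ratios against classical monocytes differed between the libraries along with the monocyte level. The MHC class II gene H2-Aa stood at 3144 and 2772 CPM in macrophages and at 2726 and 747 CPM in classical monocytes. Hilpda, a lipid droplet protein raised by low oxygen, stood at 144.5 and 3.6 CPM in classical monocytes, beside 116.3 and 75.7 CPM in macrophages.

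The list of 7 genes of creatine use added to 403 CPM in control and 466 CPM in creatine macrophages, 109.9 and 119.8 CPM in classical and 73.3 and 84.5 CPM in nonclassical monocytes. The monocyte sums hold 62 to 232 UMIs for the list, and 4 genes reached the minimum in all 4 comparisons, mostly through the macrophages. The transporter Slc6a8, the brain-type creatine kinase Ckb and the synthesis enzyme Gatm were past the fold higher in all 4, and the synthesis enzyme Gamt in none. Slc6a8 stood at 32.5 CPM in control and 38.3 CPM in creatine macrophages. Classical monocytes held 3.14 CPM in control and 0 UMIs in creatine (a count of 0 allows 3 UMIs, or 1.55 CPM), and nonclassical monocytes 0 UMIs in control (up to 3.55 CPM) and 1.09 CPM in creatine. Ckb was higher than in classical monocytes by a log2 ratio of 1.82 in control and 1.76 in creatine, and Gatm by 2.31 and 2.60. Between the libraries these genes moved little: Slc6a8 had a creatine over control log2 ratio of 0.24 (interval 0.02 to 0.46), Ckb 0.23, Gatm 0.21 and Gamt, the other synthesis enzyme, -0.15 with an interval that held 0. The list median turned to -0.23 with 3 ranges of C1q UMIs weighted equally. With each macrophage thinned to 2000 UMIs, 4.73% of control and 8.59% of creatine macrophages held a Slc6a8 UMI, beside 0.45% and 0.314% of T cells. Without thinning the macrophage shares were 25.6% and 36.1%.

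Between the libraries most macrophage genes stayed within 2-fold in the pooled sums. Of 9220 genes measured, 50 (0.542%) were past the fold higher in creatine macrophages and 67 (0.727%) lower, and the median log2 ratio over all genes was -0.01. With 3 ranges of C1q UMIs (10 to 19, 20 to 49, 50 or more) weighted equally, which gives 22 and 24 creatine cells the weight of 248, 217 genes were higher and 407 lower. At these depths many smaller ratios had an interval off 0, 1360 genes above (14.8%) and 1356 below (14.7%). Of the 50 higher genes 10 belonged to the list of 30 measured interferon-gamma response genes, and none of the 67 lower genes did.

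Interferon-gamma response genes were higher as a group in the creatine macrophages. Their median log2 ratio was 0.83, 10 of 30 were past the fold, and the interval lay above 0 for 27 and below 0 for 1. Cxcl10 stood at 273.6 CPM in control and 791.2 CPM in creatine macrophages, a log2 ratio of 1.53 (1.47 to 1.59). Cxcl9, the other Cxcr3 ligand, stood at 802.5 and 1449 CPM, a ratio of 0.85 (0.81 to 0.89) that did not reach 2-fold. The genes lie 27.5 kb apart from end to end at chr5:92321347-92348889 (GRCm38). Cxcl10 was at 0.99, just under the fold, in macrophages without any UMI of Cd3d, Cd3e, Cd3g, Ncr1, Cd79a, S100a8, S100a9 or Dct. Here and below, macrophages without other types' markers are cells without a UMI of these genes alone. RNA of other markers, such as Gzma, Ighm, Csf3r or dendritic cell genes, could remain in them.

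The guanylate-binding proteins, GTPases that attack microbes inside cells, rose in part. Gbp2 stood at 328.5 CPM in control and 844.1 CPM in creatine macrophages, a log2 ratio of 1.36 (1.31 to 1.42). Gbp5, which promotes inflammasome assembly and had the largest ratio of the list, stood at 47.4 and 141.8 CPM (1.58, 1.44 to 1.72). Gbp4 had a ratio of 1.26. Gbp3 (0.99) and Gbp7 (0.60) stayed under the fold, and Gbp6 stood at 15.6 CPM in both libraries. Gbp5, Gbp7, Gbp3, Gbp2b and Gbp2 lie within 144 kb at chr3:142493978-142638008, and because they are close in sequence, counting could have split reads between them.

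Socs1, which shuts off signalling from the interferon-gamma receptor, was 2.75-fold higher (1.46, 1.33 to 1.60) and stood at 54.5 CPM in control. The transcription factors Irf1 (145.6 and 259.9 CPM, 0.84) and Irf8 (288.6 and 508.8 CPM, 0.82) were higher by less than the fold. The receptor chain Ifngr1 had the smallest ratio of the list, 160.6 and 129.3 CPM (-0.31), and the kinase Jak1 stood at 0.07.

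The effector genes included Acod1, which makes itaconate, at 54.5 and 143 CPM (1.39), and Slamf8 at 90.3 and 210.2 CPM (1.22). The immunity-related GTPases Igtp (1.10) and Iigp1 (0.96) were on either side of the fold. Nos2 stood at 36.1 and 83.5 CPM (1.21, 1.04 to 1.38), but at 0.14 where the 3 ranges of C1q UMIs were weighted equally and at 0.76 without other types' markers. Fcgr4, an abundant Fc receptor, had a ratio of 0.48, the checkpoint ligand Cd274 0.57 and the costimulatory receptor Cd40 0.85.

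**Figure D3:**
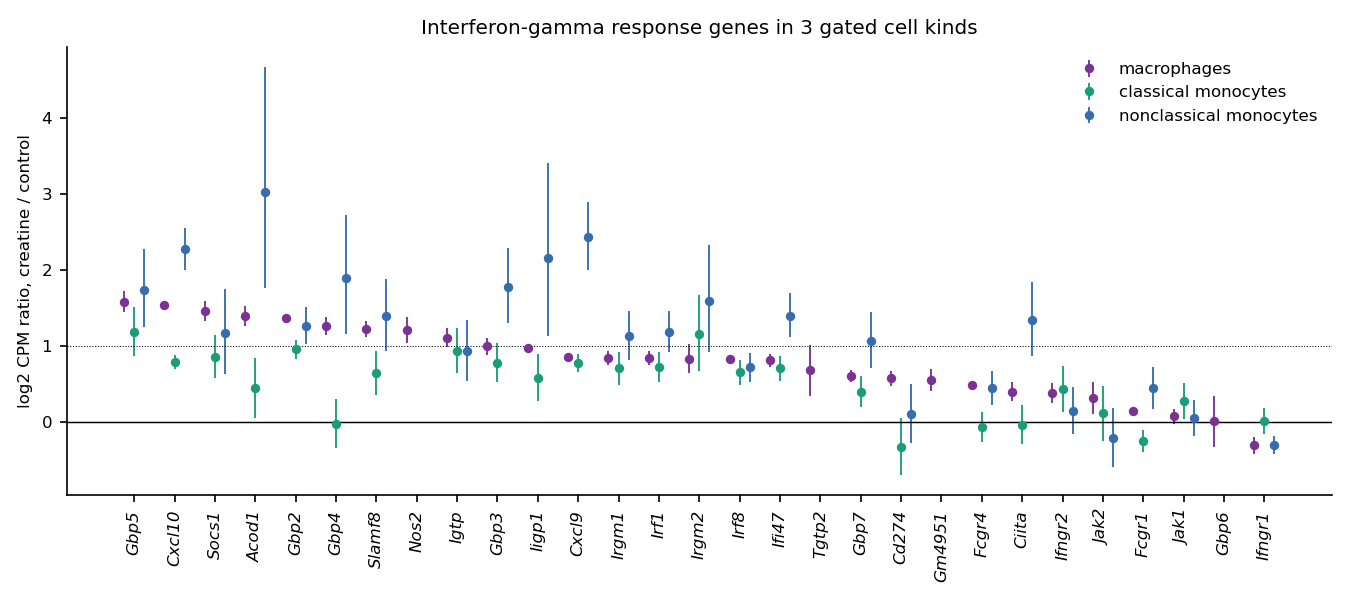
Log2 ratio of creatine to control CPM for interferon-gamma response genes in macrophages, classical monocytes and nonclassical monocytes, ordered by the macrophage value; bars are 95% intervals for counting error, and genes under 100 UMIs in a kind are not drawn there. In macrophages nearly all points lie above 0, with Gbp5, Cxcl10 and Socs1 at the top and Ifngr1 below 0.

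The windows upstream of 3 of these genes are shown, chosen because they hold letters that interferon-activated factors are known to bind. Windows of 250 bases before the RefSeq start (GRCm38.p6) were searched on both strands for TTCNNNGAA (GAS, the gamma-activated sequence) and for GAAA, any 2 bases and GAAA (ISRE, the motif of interferon regulatory factors). Capitals mark the matches, each sequence runs 5′ to 3′ on the strand of its gene, and an overlapping pair of ISRE matches in Socs1 is merged. Cxcl10 lies on the minus strand with its window at chr5:92348890-92349139, Socs1 on the minus strand at chr16:10785537-10785786 and Irf1 on the plus strand at chr11:53769764-53770013.
Cxcl10: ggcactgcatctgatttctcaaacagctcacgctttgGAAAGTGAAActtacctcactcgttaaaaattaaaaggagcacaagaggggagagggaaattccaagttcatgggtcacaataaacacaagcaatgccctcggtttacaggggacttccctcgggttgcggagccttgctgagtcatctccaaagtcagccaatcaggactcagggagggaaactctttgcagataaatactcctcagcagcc
Socs1: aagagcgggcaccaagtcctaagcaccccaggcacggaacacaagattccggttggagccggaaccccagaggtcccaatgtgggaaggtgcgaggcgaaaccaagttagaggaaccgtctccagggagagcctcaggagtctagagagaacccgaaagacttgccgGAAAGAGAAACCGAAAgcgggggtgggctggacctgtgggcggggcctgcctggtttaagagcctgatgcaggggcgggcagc
Irf1: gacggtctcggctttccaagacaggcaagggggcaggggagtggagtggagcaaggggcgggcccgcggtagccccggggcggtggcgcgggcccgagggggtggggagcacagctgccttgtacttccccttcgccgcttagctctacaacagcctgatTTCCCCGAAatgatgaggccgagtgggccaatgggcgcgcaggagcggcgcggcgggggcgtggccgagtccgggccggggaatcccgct
The ISRE match began 213 bases before the start of Cxcl10, and the GAS match of Irf1 lay 90 bases before its start. Over all 27025 mouse genes with a window, 8.13% held a GAS match, 3.46% an ISRE match and 11.1% either. A window was found for 24 of 33 genes of the interferon-gamma list, too few for a share over the list, and none is given. The window of Cxcl9 held neither set of letters, which says nothing of the factors that act on it. A match is a description of sequence, and no binding was measured.

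Type I interferon genes moved less in the pooled sums. Of 26 genes 25 had intervals above 0, with a median log2 ratio of 0.47 (0.88 with equal C1q ranges, 0.29 with at most 2 UMIs of Ly6c2 and Vcan). By range the median was 1.13 at 10 to 19 C1q UMIs, 1.06 at 20 to 49 (interferon-gamma list 1.01) and 0.47 at 50 or more. In the 2 lower ranges 6 of 9 and 11 of 19 genes were past the fold higher, beside 62 of 1004 and 70 of 2264 over all genes. In the pooled sums 1 gene was past the fold: Ifi205, of the Ifi200 family of DNA-binding proteins. It stood at 27.2 and 59.4 CPM (1.13, but 0.56 with at most 2 UMIs of Ly6c2 and Vcan per cell). The abundant Isg15, a ubiquitin-like protein, stood at 291.5 and 503.2 CPM (0.79) and the tetherin Bst2 at 391.1 and 513.1 CPM (0.39). Oas1a, an RNA sensor, was the exception at 50.5 and 31.3 CPM (-0.69).

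In the pooled sums antigen presentation genes divided by class. All 14 MHC class I genes had intervals above 0, with a median of 0.38 and none past the fold. H2-K1 stood at 1940 CPM in control and 2509 CPM in creatine macrophages (0.37), B2m at 3863 and 4731 CPM (0.29), and the peptide editor Tapbpl, with the largest ratio, at 41.2 and 68.3 CPM (0.73). Of 8 MHC class II genes 5 had intervals below 0 and 2 above, with a median of -0.18. By range the class II median was -0.71 at 10 to 19 C1q UMIs over 7 genes, 0.09 at 20 to 49 over 7 and -0.12 at 50 or more. In the 20 to 49 range 5 of the 7 class II genes had intervals above 0 and none below. The class I median was 0.65, 0.69 and 0.37 over the 3 ranges. In the pooled sums H2-Aa, H2-Ab1, H2-Eb1 and Cd74 were lower. H2-Aa had a ratio of -0.18, H2-Ab1 -0.19, H2-Eb1 -0.35 and the invariant chain Cd74 -0.18, whereas Ciita, their transcriptional activator, was at 92.0 and 120.8 CPM (0.39).

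**Figure D4:**
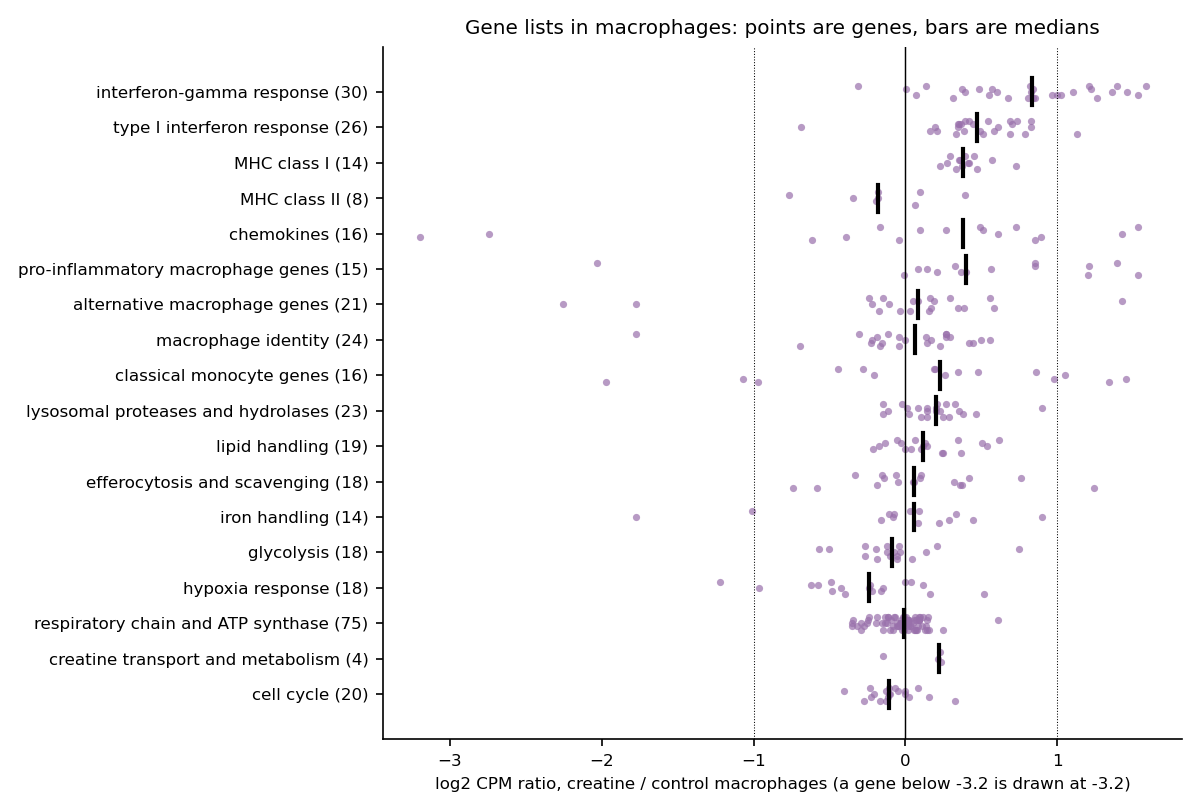
Log2 ratio of creatine to control macrophage CPM by gene list; points are genes, vertical bars list medians, and Cxcl3, at -6.57, is drawn at -3.2. The interferon-gamma list has the highest median of the response lists (0.83) and the hypoxia list lies below 0 (-0.24), with all genes at -0.01.

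Chemokines went both ways. Of 16 measured 10 had intervals above 0 and 5 below, with a median log2 ratio of 0.38 (-0.014 with 3 ranges of C1q weighted equally). Ccl8 stood at 2090 CPM in control and 3887 CPM in creatine macrophages, a ratio of 0.89 (0.87 to 0.92), close to but under the fold. It lies with Ccl2 (1012 and 1443 CPM, 0.51), Ccl7 (0.61) and Ccl12 (0.49), all ligands that attract monocytes, within 81.2 kb at chr11:82035571-82116799. The second group on chromosome 11, within 138.91 kb at chr11:83525778-83664683, was mixed: Ccl5 0.73, Ccl6 0.10, Ccl4 -0.04, Ccl3 -0.39 and Ccl9 -0.61.

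The neutrophil-attracting chemokines Cxcl3 and Cxcl2 were past the fold lower. Cxcl2 fell from 90.8 to 13.6 CPM, a log2 ratio of -2.74 (-3.06 to -2.45). Cxcl3 had 187 UMIs in control and 1 UMI in creatine macrophages, a ratio of -6.57 with an interval of -11.88 to -4.07. After thinning to 2000 UMIs, a Cxcl2 UMI was found in 6.35% of control and 1.03% of creatine macrophages (16.9% and 8.50% without thinning), beside 6 of 1557 T cells in control and 0 of 1909 in creatine, which allows up to 0.157%. Ccl24, an eosinophil ligand of the alternative program, was past the fold higher (4.89 and 13.1 CPM, 1.42), but at 0.47 with at least 20 C1q UMIs per cell. Ccl22 had 4 UMIs in control and 40 in creatine macrophages, too few to be counted.

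Pro-inflammatory genes had a median of 0.40 over 15 genes (0.71 without other types' markers), with 4 past the fold higher (Cxcl10, Nos2, Acod1 and Il27) and 1 lower. Il27, a cytokine that acts on T cells, had a ratio of 1.20 (0.72 with at most 2 UMIs of Ly6c2 and Vcan), and Inhba, the activin A subunit, was lower at -2.03. Il1b stood at 35.7 and 41.3 CPM, with an interval that held 0. The lipopolysaccharide coreceptor Cd14, from the Toll-like receptor list, was past the fold lower at 67.3 and 32.0 CPM (-1.07, but -0.99 without other types' markers).

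The alternative program had no common direction. Of 21 genes 9 had intervals above 0, 6 below and 6 around it, with a median of 0.08 (-0.21 with 3 ranges of C1q weighted equally, and -1.33 over 12 genes, 10 with ratios below 0, in the 20 to 49 range). Mrc1 stood at 723.5 CPM in control and 621.1 CPM in creatine macrophages (-0.22). Its ratio was -0.96 in cells with 10 to 19 C1q UMIs, -1.76 with 20 to 49 and -0.21 with 50 or more. The lectin Mgl2 was past the fold lower at 63.3 and 13.3 CPM, a ratio of -2.25 (-2.58 to -1.95). The haemoglobin scavenger Cd163 was lower too, at 7.66 and 2.24 CPM (-1.78), although at -0.55 with 3 ranges of C1q weighted equally. Folr2, a folate receptor of resident macrophages, stood at 76.4 and 112.3 CPM (0.56). By shares of thinned cells, 59.4% of control and 47.1% of creatine macrophages held Mrc1, beside 2.63% and 0.629% of T cells, and 88.1% and 79.3% without thinning.

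Identity genes otherwise stayed close in the pooled sums. Of 24, 12 had intervals above 0 and 9 below, with a median of 0.07 (-0.085 with 3 ranges of C1q weighted equally). By range the median was 0.17 at 10 to 19 C1q UMIs over 14 genes, -0.57 at 20 to 49 over 17 and 0.06 at 50 or more. In the 20 to 49 range 14 of 17 genes had ratios below 0. There 6 of them were past the fold lower, beside 104 of 2264 over all genes. The lipid carrier Apoe stood at 5266 and 5246 CPM (-0.01), Trem2 at 413.9 and 457.1 CPM (0.14) and Cd68 at 1053 and 1184 CPM (0.17). Ms4a7 was at 0.44 and the tetraspanin Cd81 at -0.69. In cells with 20 to 49 C1q UMIs Apoe was at -0.86, Trem2 at -1.58 and Ms4a7 at -0.57. With 10 to 19 they were at 0.14, -1.04 and 1.15.

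Lysosomal genes leaned upward within 2-fold in the pooled sums and in the C1q-richest cells. Of 23 genes 17 had intervals above 0 and 3 below, with a median of 0.20 (0.050 with 3 ranges of C1q weighted equally). By range the median was -0.01 at 10 to 19 C1q UMIs over 17 genes, -0.21 at 20 to 49 over 21, of which 16 had ratios below 0, and 0.19 at 50 or more. Ctsb stood at 4754 and 6074 CPM (0.35), Ctss at 3139 and 4088 CPM (0.38) and Psap, a cofactor of lipid breakdown, at 5794 and 6789 CPM (0.23). Ctsk, the least abundant of the named proteases, had the largest ratio (12.3 and 22.9 CPM, 0.90). Of 19 lipid genes 12 had intervals above 0 and 3 below, with a median of 0.11 (-0.11 with 3 ranges of C1q weighted equally). By range the lipid median was -0.04 at 10 to 19 C1q UMIs over 9 genes, -0.51 at 20 to 49 over 15, of which 13 had ratios below 0, and 0.14 at 50 or more. Fabp5 stood at 3187 and 4879 CPM (0.61), Gpnmb had a ratio of 0.42 and the lipid droplet coat protein Plin2 -0.22. Gpnmb turned with C1q: it was at 1.02 at 10 to 19, -3.36 at 20 to 49 (477 and 11 UMIs) and 0.45 at 50 or more. Among 18 scavenging genes the median was 0.05 (-0.22 with equal C1q ranges) and the complement factor Cfb was past the fold (16.5 and 39.0 CPM, 1.24).

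Iron genes had a median of 0.06 over 14 genes (-0.11 with equal C1q ranges), with Cd163 and the iron exporter Slc40a1 (17.2 and 8.52 CPM, -1.01) past the fold lower. Slc40a1 lay between -0.998 and -0.74 under 4 other settings. The importer Tfrc stood at 40.4 and 75.4 CPM (0.90), below the fold.

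Hypoxia genes leaned downward, and glycolysis genes less so. Of 18 hypoxia genes 12 had intervals below 0 and 1 above, with a median of -0.24 (-0.72 with equal C1q ranges). By range the median was -1.16 at 10 to 19 C1q UMIs over 5 genes, -0.88 at 20 to 49 over 12 and -0.13 at 50 or more over 17. The list added to 1972.5 CPM in control and 1749.6 in creatine macrophages. It added to 1902 and 935 CPM in classical monocytes, 1127 and 761 in nonclassical monocytes and 1897 and 1481 over all kept cells. Hilpda had a ratio of -0.62, the prolyl hydroxylase Egln3 -0.96, Bnip3 -0.43, and the mTOR inhibitor Ddit4, the gene past the fold, -1.22. The transcription factor Hif1a was the exception at 96.1 and 137.7 CPM (0.52). Of 18 glycolysis genes 10 had intervals below 0 and 3 above, with a median of -0.09 (0.070 in macrophages without any UMI of other types' markers and -0.33 with equal C1q ranges), from Eno1 (-0.57) to the myeloid hexokinase Hk3 (0.74). Over the same 3 ranges the glycolysis median was -0.67, -0.29 and -0.05. The 75 respiratory chain and ATP synthase genes had a median of -0.01, with 16 intervals above and 22 below 0. Of 20 cell cycle genes 13 had intervals that held 0, and Mki67 stood at 155.6 and 142.3 CPM.

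Monocyte genes changed unevenly. Of 16 classical monocyte genes 3 were past the fold higher and 2 lower, with a median of 0.23 (0.97 with equal C1q ranges). Of the higher, Ly6i had a ratio of 1.34 and Ifitm6 1.05. Thbs1, a matrix glycoprotein, was lower at 92.1 and 23.5 CPM (-1.97), and the transglutaminase F13a1 at 210.6 and 100.3 CPM (-1.07, but -0.60 with 3 ranges of C1q weighted equally and -0.94 without other types' markers). Ly6c2 stood at 181.5 and 357.1 CPM (0.98) and Ccr2 at 422.2 and 348.3 CPM (-0.28). The Ccr2 ratio was 0.41 in cells with 10 to 19 C1q UMIs, 0.80 with 20 to 49 and -0.42 with 50 or more. The calls of Ly6i and Ifitm6 moved with the monocyte end of the gate. In macrophages with at most 2 UMIs of Ly6c2 and Vcan, the ratio was -0.58 for Ly6i, -0.14 for Ifitm6 and -1.33 for Ccr2. The list median there, which takes in Ly6c2 and Vcan themselves, was -0.42. The cut is a fixed number of UMIs, which a deeper cell exceeds more easily. Cells under the cut were deeper in the creatine library, with 26778 UMIs at the median against 15852 for control. In the cells with more than 2 UMIs of Ly6c2 and Vcan the Ccr2 ratio was -0.16. The part of depth in these ratios was not tested.

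Among the remaining lists, 1 of 14 inhibitory ligands and receptors (Pdcd1lg2, the second ligand of the receptor PD-1, 7.87 and 17.7 CPM, 1.17, but 0.97 with at most 2 UMIs of Ly6c2 and Vcan) and 1 of 11 chemokine and complement receptors (Fpr1, a formyl peptide receptor, 3.62 and 7.54 CPM, 1.06) were past the fold higher. Fpr1 was at -0.61 with 3 ranges of C1q weighted equally and between 0.86 and 0.998 under 4 other settings. Of 12 nonclassical monocyte genes 2 were lower, of 10 heat shock genes the chaperone Hspa1b was lower (-1.97, but 0.49 without other types' markers), and of 15 Toll-like receptor genes and partners Cd14 was. None of 5 Fc gamma receptor genes or 16 immediate early genes was past the fold.

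Outside the lists, the largest gain was that of Clic5, an intracellular chloride channel protein, at 5.10 and 33.1 CPM (2.70), a UMI of which was found in 0.623% of control and 5.84% of creatine macrophages after thinning (4.80% and 22.8% without), beside 0.128% and 0.157% of T cells. It was followed by the cytokine Tnfsf15 (2.46), the cholesterol hydroxylase Ch25h at 29.6 and 113.5 CPM (1.94), the inflammatory caspase Casp4 at 26.5 and 93.99 CPM (1.83), Gbp2b (1.70), the actin-binding Cnn3 (1.61), the caspase Casp1 at 40.8 and 123.2 CPM (1.60) and the receptor Tlr12 (1.46, but 0.97 with equal C1q ranges). Casp1 and Casp4 cleave gasdermin D and open the cell to the release of its contents.

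The largest loss outside the lists was the granzyme Gzmc (191 and 11 UMIs, -3.14), a cytotoxic cell gene, which was at -0.75 with 3 ranges of C1q weighted equally. Thy1, Klrb1b and Xcl1, also genes of T and NK cells and named after their values were seen, were lower at -1.16, -1.12 and -1.02. The T cell marker sum was 73.4 CPM in control and 54.7 CPM in creatine macrophages, the NK cell marker sum went the other way (62.8 and 86.5 CPM), and the part of such RNA in these calls was not tested. Next came the histone gene Hist1h2ap at 497.6 and 132.1 CPM (-1.91), which was at -0.20 in macrophages without any UMI of other cell types' markers, the decoy receptor Il1r2 (-1.76), the enolase copy Eno1b (-1.74, but -0.58 with equal C1q ranges), Gstp1 (-1.71), Negr1 (-1.69, but -0.91 with equal C1q ranges), Hist1h2br (-1.68) and the endothelial lipase Lipg (-1.65, but 0.17 without other types' markers). Eno1b, Gstp1 and the histone genes have close copies, between which counting could have split reads.

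The same 2 libraries gave these genes in the monocytes, in cells that the macrophage gate did not hold. Of 4208 genes measured in classical monocytes 1.73% were past the fold higher in creatine and 1.85% lower, and of 4719 in nonclassical monocytes 1.93% and 0.36%. Of the 50 genes higher in creatine macrophages 22 were measured in classical monocytes, where 5 were higher and none lower with a median log2 ratio of 0.76. In nonclassical monocytes 22 were measured, 15 were higher and none lower, with a median of 1.42. Of the 67 lower genes 17 were measured in classical monocytes, with 8 lower and a median of -0.95, and 18 in nonclassical monocytes, with 6 lower, 1 higher and a median of -0.68. The kinds share the library, so these values are not separate replicates of a treatment.

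The C1q-high cells were not uniform, and the interferon genes differed between the libraries at every C1q level. In control macrophages 63 cells (7.75%) had 10 to 19 C1q UMIs, 125 (15.4%) had 20 to 49 and 625 (76.9%) had 50 or more. In creatine macrophages 22 (7.48%), 24 (8.16%) and 248 (84.4%) cells did. Median UMIs rose with C1q, from 6645 through 8078 to 17513 in control and from 9679 through 11724 to 25499 in creatine, so a C1q count also reads depth. The interferon-gamma list had a creatine over control median of 1.67 in the lowest range (22 genes), 1.01 in the middle (24) and 0.79 in the highest (30), beside 0.03, 0.03 and -0.01 over all genes.

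Cxcl9 stood at 384 and 2661 CPM in the lowest range, 894 and 2861 in the middle and 810 and 1352 in the highest. Cxcl10 stood at 340 and 2851 CPM, 292 and 1508 CPM, and 269 and 697 CPM. The gap between the libraries was widest where C1q was low, in 22 and 24 creatine cells. NK cell markers in those ranges added to 203 CPM in control and 23.8 in creatine, then 20.6 and 261, and 61.5 and 81.2 in the highest range. In the middle range neutrophil markers added to 282 CPM in control and 68.9 CPM in creatine, and T cell markers to 95.9 and 167 CPM. The part of this RNA was not tested. In macrophages with at most 2 UMIs of Ly6c2 and Vcan the interferon-gamma median was 0.75, with Cxcl9 at 814 and 1187 CPM and Gbp2 at 278 and 742 CPM, and in those with more than 2 it was 0.97. In the cells with more than 2, NK cell markers added to 65.5 CPM in control and 213 CPM in creatine and dendritic cell markers to 17.8 and 61.2 CPM. In the cells with at most 2 both were lower in creatine, at 61.8 and 27.6 CPM and 13.4 and 7.57 CPM, and their part was not tested.

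Within each library, cells with 50 or more C1q UMIs were set beside those with 10 to 19. The C1q-rich sums held 12469353 and 6673799 UMIs and the others 468334 and 210481, so a gene could reach the minimum of 100 UMIs through the C1q-rich cells alone, and the counts and medians are descriptions. Of 8367 genes in control 11.9% had intervals above 0 and 9.92% below, and of 6735 in creatine 11.2% and 11.3%. Identity genes had intervals above 0 for 21 of 24 in control and 17 of 23 in creatine, with medians of 0.88 and 1.32. Lysosomal genes did for 20 and 17 of 23, with medians of 0.58 and 0.66. Classical monocyte genes had intervals below 0 for 15 of 16 and 15 of 15, with medians of -1.92 and -2.79. Of 20 cell cycle genes 20 in control and 16 in creatine had intervals above 0, with Mki67 at 11 UMIs in control and 2 in creatine in the 10 to 19 range, beside 2122 and 1004 UMIs in the richest. MHC class II genes were lower for 8 of 8 and 7 of 7, with medians of -0.99 and -0.38. The interferon-gamma list was lower in the C1q-richest creatine cells for 22 of 30 genes (median -0.82) and in control for 8 (median -0.14).

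Macrophages were next divided by whether a cell, thinned to 2000 UMIs, held a UMI of Ccl8 or Ly6c2. Thinning left out 10 control and 3 creatine macrophages with fewer UMIs. A Ccl8 UMI was found in 48.6% of control and 61.2% of creatine macrophages, beside 4.62% and 2.88% of T cells (61.4% and 72.4% of macrophages without thinning). A Ly6c2 UMI was found in 21.4% and 30.2% (43.4% and 56.5% without thinning). T cells, many of which express Ly6c2, held it in 48.6% and 44.2%, above the macrophages, so the macrophage shares are not read as expression. The T cells had median counts of 6768 and 8431.5 UMIs. A cell without a UMI may still hold the RNA, so these are groups of cells with more and less of it.

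Macrophages with and without Ccl8 differed in several lists. Of 6602 genes 113 (1.71%) were past the fold higher in both libraries in cells with a Ccl8 UMI, and 86 (1.3%) lower. Of 17 scavenging genes measured 5 were higher (C4b, Cd36, Gas6, Marco and Stab1) and none lower, and of 23 identity genes 9 were higher and none lower. The scavenging median was 0.53 in control and 0.81 in creatine and the identity median 0.74 and 1.30, beside 0.05 and -0.03 over all genes. The bridging ligand Gas6, which joins dying cells to Mertk and Axl, stood at 139 CPM with and 14.1 CPM without Ccl8 in control, and at 115 and 7.62 CPM in creatine. The growth factor Igf1 stood at 162 and 15.6 CPM in control and 188 and 19.3 CPM in creatine, and Folr2 at 116 and 30.8 CPM and 148 and 12.9 CPM. Stab1 had log2 ratios of 2.10 and 2.22, Ms4a7 1.57 and 1.58, the scavenger receptor Marco 5.73 and 3.87, and Mrc1 1.03 and 1.40.

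Of 15 classical monocyte genes measured 11 were lower with Ccl8 and none higher, with median log2 ratios of -2.31 in control and -2.88 in creatine. Ccr2 stood at 91.1 CPM with and 816 CPM without Ccl8 in control, and at 110 and 968 CPM in creatine. Plac8 had ratios of -2.90 and -3.22, Il1b -3.00 and -2.29, the chitinase-like Chil3 -2.65 and -3.59 and Ciita -1.70 and -1.66, where Il1b and Ciita are not on that list. Gzma, an NK and T cell gene, was also lower with Ccl8 (4.13 and 73.7 CPM in control, 12.7 and 188 CPM in creatine). NK cell markers added to 21.1 CPM with and 117 CPM without Ccl8 in control, and 24.6 and 252 CPM in creatine. Neutrophil markers added to 98.5 and 85.4 CPM in control but 54.8 and 231 CPM in creatine. Cells with Ccl8 were deeper, at a median of 18866 against 12900 UMIs in control and 28884 against 14384 in creatine. The part of these differences was not tested.

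The Ly6c2 division gave much the reverse, with 59 genes (0.894%) higher and 175 (2.65%) lower in both libraries. Of 15 classical monocyte genes 11 were higher, Ly6c2 among them, and of 20 cell cycle genes 12 were lower. With 172 control and 88 creatine cells against 631 and 203, genes could reach the minimum through the cells without Ly6c2 alone. Ccr2 stood at 1101 CPM with and 279 CPM without Ly6c2 in control, and at 1059 and 137 CPM in creatine. Plac8 had log2 ratios of 2.55 and 3.36, C3 1.38 and 1.72 and Il1b 1.76 and 1.81. Lower with Ly6c2 were the division genes Ube2c (-3.41 and -2.98) and Cdk1 (-3.27 and -1.96), Igf1 (-2.39 and -2.51), Nos2 (-2.33 and -2.33) and the elastase Mmp12 (-2.19 and -3.35). The creatine transporter Slc6a8 stood at 8.13 CPM with and 37.7 CPM without Ly6c2 in control, and at 10.8 and 44.6 CPM in creatine. NK cell markers added to 64.0 and 62.8 CPM in control but 307 and 23.4 CPM in creatine. Dendritic cell markers added to 5.08 CPM with and 16.2 CPM without Ly6c2 in control and 88.1 and 7.53 CPM in creatine, and neutrophil markers to 150.4 and 81.96 CPM and 58.0 and 112 CPM. Cells with Ly6c2 were shallower (12502 against 16444 and 14732 against 26990 UMIs), and the part of these differences was not tested.

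Pairs of genes were read in the same thinned cells. With Ccl8, 75.4% of control cells held Mrc1 and without it 44.3%, and in creatine 59.0% and 28.3%. With Ccl8, 6.15% of control cells held Ly6c2 and without it 35.8%, and in creatine 10.1% and 61.9%. Cxcl9 was found in 37.5% of control (34.1 to 40.9%) and 57.0% of creatine macrophages (51.1 to 62.8%), beside 2.57% and 2.10% of T cells (63.7% and 84.7% of macrophages without thinning). Among cells with Cxcl9, 63.1% held Ccl8 in control against 39.8% of those without. In creatine the shares were 55.4% against 68.8%, with intervals that overlapped (47.5 to 63.1% and 59.9 to 76.8%). Mrc1 by Cxcl9 was at 64.1% against 56.6% in control and 42.2% against 53.6% in creatine, with overlapping intervals in both libraries. These are 1 library each, with no test of the difference. Dendritic cell markers added to 15.4 CPM with and 13.8 CPM without Cxcl9 in control but 38.8 and 6.57 CPM in creatine, and neutrophil markers to 90.1 and 94.5 CPM but 136 and 55.7 CPM. NK cell markers added to 42.4 and 76.7 CPM in control and 68.7 and 103 CPM in creatine, and B cell markers to 196 and 103 CPM and 123 and 85.5 CPM. Median UMIs were 16444 with and 14596 without Cxcl9 in control, and 22138 and 22715 in creatine. Their part was not tested.

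**Figure D5:**
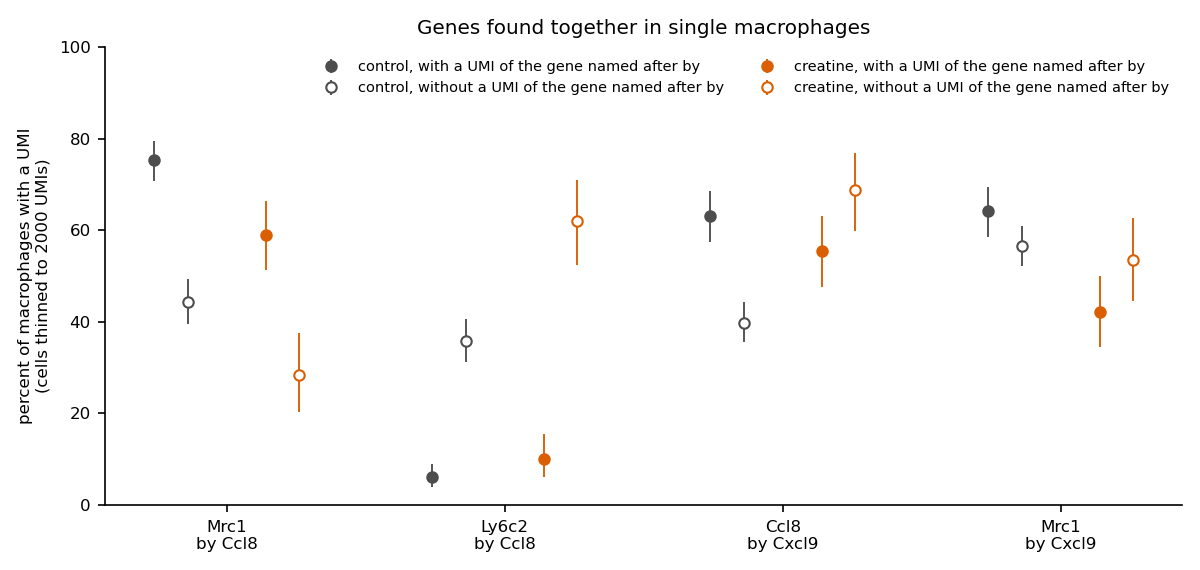
Percent of macrophages with a UMI of a gene after thinning to 2000 UMIs, in cells without (open circles) and with (filled circles) a UMI of the gene named after "by", for the control and creatine libraries; bars are 95% exact binomial intervals. Ccl8 by Cxcl9 is 63.1% with against 39.8% without in control, and 55.4% against 68.8% in creatine.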

How the data were processed

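Per the labels, cells were profiled with 10x Genomics 3′ chemistry, and the submitters' processing notes name Cell Ranger 3.0.2 and the mm10 build. The authors deposited raw UMI counts per gene and barcode, 1 matrix a library, not normalized, with 31053 gene rows (31017 symbols, rows of 1 symbol summed). No cell annotation was used. Macrophages and monocytes were gated on UMIs as the report states, and their names rest on the gates. The members, the 35 gene lists (556 symbols) and the comparisons were chosen with earlier results of these data known.

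Counts of the cells of a kind were summed per library and scaled to a total of 1e+06 (CPM). With 1 library per group no test was made. Log2 ratios of CPM have exact conditional 95% binomial intervals, CPM exact Poisson and shares exact Clopper-Pearson intervals, all for counting error alone. A count of 0 allows up to 3 UMIs. A gene was measured with at least 100 UMIs over both sums. Shares of cells with a UMI were taken from cells thinned to 2000 UMIs, beside T cells (3 or more Cd3 UMIs, no C1q or Csf1r). Doublets were kept, and removed in an alternative with Scrublet (scanpy 1.11.5). The ratios and the thinning were tested on simulated data.

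Named were genes of the lists, with those of most UMIs and the largest and smallest ratio, the 8 largest and 8 smallest ratios between libraries outside the lists among genes past the fold, the 8 highest and 5 lowest against each kind of monocyte by the smaller of both libraries' ratios, and the gate genes. A gene without a UMI in a sum has no ratio and was left out of the ranking against monocytes. Unnamed gene models, mitochondrial and ribosomal protein genes were counted and not named. Ifi30 and Cxcl11 had no row. Some genes that the rule names are not reported here. Positions are from GENCODE M21. Python 3.11.15, numpy 2.4.6, pandas 2.3.3, scipy 1.17.1 and edgeR 4.0.16 (TMM factors, R 4.3.3) were used.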

Additional observations from a re-analysis of the deposited data

Results flagged for a closer look

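Ifitm1, an interferon-induced membrane protein, went opposite ways in 2 gated kinds. Its creatine over control log2 ratio was -1.16 (interval -1.41 to -0.93) in macrophages, at 55.7 and 24.9 CPM, and 1.02 (0.23 to 1.91) in nonclassical monocytes. With 1 library per group the difference was not tested.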

How the results depend on the processing

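No paired analysis was possible because each group had 1 library, and no replicate could be left out. The cause of the changes below was not tested. The macrophage share was 10.4% in control with at least 20 C1q UMIs, 8.07% in control and 2.91% in creatine with at most 2 UMIs of Ly6c2 and Vcan, and 4.61% and 1.94% without any UMI of other types' markers. The control over creatine ratio of shares stayed between 2.37 and 2.78. Removing the cells with shared barcodes, an alternative chosen after seeing the data, left shares of 11.2% and 4.73% and 50 and 68 genes past the fold. Removing the 6% of cells with the highest Scrublet scores took 18 control (2.21%) and 24 creatine macrophages (8.16%).

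With 3 C1q ranges weighted equally, 217 genes were higher and 407 lower in creatine macrophages, and with a minimum of 30 UMIs 91 and 171. Equal weight for the ranges turned the medians of the identity (-0.085), lipid (-0.11), chemokine (-0.014) and creatine (-0.23) lists, and moved MHC class I to 0.60, MHC class II to -0.27, interferon-gamma to 1.10, type I interferon to 0.88 and hypoxia to -0.72. It turned Fpr1 (-0.61). With at most 2 UMIs of Ly6c2 and Vcan, the classical monocyte list (-0.42), Ifitm6 (-0.14) and Ly6i (-0.58) turned, MHC class II was -0.25 and type I interferon 0.29. Without other types' markers, glycolysis (0.070), Hspa1b (0.49) and Lipg (0.17) turned, type I interferon was 0.68 and MHC class II -0.23. MHC class II was -0.15 with at least 20 C1q UMIs, -0.15 with C1q at 1 in 1000 UMIs, -0.24 without mitochondrial and ribosomal genes, where MHC class I was 0.33, and -0.10 with equal weight per cell. The interferon-gamma median stayed between 0.75 and 1.10.

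Without other types' markers, genes higher and lower than in classical monocytes numbered 488 and 207 in control and 480 and 338 in creatine, and 885 and 601 were higher than in nonclassical monocytes. The interferon-gamma median against classical monocytes in creatine turned from -0.20 to 0.045 there and to 0.041 with equal weight per cell. Of the values of single genes between the libraries, 5444 kept their call or, where there was none, stayed within their interval, 806 left their interval without a call in the same direction, 94 newly passed the fold, 36 fell under it and 5 turned (Fpr1, Hspa1b, Ifitm6, Lipg and Ly6i). Among the 36 were Cxcl10, Nos2, Cd163, Gzmc (-0.75 with equal C1q ranges) and F13a1 (-0.60). TMM scaling shifted the creatine over control ratios of macrophages by 0.008. It shifted the ratios to classical monocytes by -0.050 in control and -0.039 in creatine, and those to nonclassical monocytes by 0.076 and 0.002.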

Other observations

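The 4 genes named next were among the 67 lower in creatine macrophages, and were picked out after their values were seen. The clock genes Per1 and Nr1d2 stood at 20.1 and 7.96 CPM (a log2 ratio of -1.33) and at 12.9 and 6.28 CPM (-1.04). Klf9 stood at 13.3 and 4.33 CPM (-1.62) and Fkbp5, a chaperone of steroid receptors, at 32.5 and 13.6 CPM (-1.26). The serpin Serpina3g, at 204.5 and 465.8 CPM (1.19), and Il18bp, which binds interleukin 18, at 88.6 and 193.6 CPM (1.13), were among the 50 higher.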
